A study of Mus musculus with 12 samples.

Results

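The oligodendrocyte and myelin genes described here were the 30 entries of the deposited expression table whose gene name was on a list of myelin and mature oligodendrocyte markers, of 23352 entries in all. Each of the 30 had an entry of its own, and all 30 passed the filter on low values, as did 13945 entries of the whole table. The study measured poly-A RNA from hippocampus of C57BL/6J mice in 4 groups of 3 libraries: N40K-Tg mice of the Tg396 line aged 12 months, littermates of the same age without the transgene (wild type), N40K-Tg mice aged 3 months and wild-type littermates aged 3 months. N40K is a truncated form of U1-70K (Snrnp70), a protein of the U1 splicing particle, and a modified CaMKIIa promoter drives it in neurons, per the labels. All N40K mice came from that single line. The labels do not say whether the 3 samples of a group came from separate litters or extractions, so p-values here measure the spread between these samples.

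Oligodendrocytes are the glial cells that wrap axons of the central nervous system in myelin, a compacted stack of membrane rich in cholesterol and galactolipids. Compact myelin is held together by basic and proteolipid proteins, the innermost and outermost layers carry adhesion molecules such as Mag and Mog, and gap junctions of glial connexins link oligodendrocytes to each other and to astrocytes. In the hippocampus the cells are most frequent in white matter tracts such as the alveus and fimbria. In bulk RNA, fewer oligodendrocytes and less of a transcript per oligodendrocyte cannot be told apart.

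Expression was deposited as FPKM (fragments scaled by transcript length and by the mapped reads of the library), and differences are given on the scale of log2(FPKM + 1), tested with limma and adjusted by the Benjamini-Hochberg method over all 13945 entries. FPKM summed to between 309358 and 350760 per library, with all 12-month libraries below all 3-month libraries. Read totals were not used here, and the depth behind each value is unknown. Snrnp70, the source of the transgene, stood at 259 to 401 FPKM in N40K libraries, against 96.0 to 179 FPKM in wild-type libraries. Replicates of a group correlated at 0.988 to 0.997. The libraries of the 2 ages carry names from separate number series, so age and a difference between those series cannot be told apart. Xist, which is expressed from the inactive X chromosome of females, stood at 13.5 to 17.3 FPKM in 3 libraries and at or below 0.112 FPKM in the other 9. Ddx3y, a gene of the Y chromosome, stood at 0.0166 to 0.0647 FPKM in those 3 and at 13.9 to 17.6 FPKM in the other 9. The 3 were N40K replicate 3 and wild-type replicates 2 and 3, all at 3 months, and are called the libraries with Xist, or with Xist reads, below. The labels give no sex, but by both genes it was unbalanced between genotypes at 3 months and between ages. The members' results in the genotype and age comparisons are given with and without these 3 libraries.

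The 30 genes spanned a wide range of levels per transcript length. Mbp, a basic protein of compact myelin, was the most abundant, with 655, 689 and 717 FPKM in N40K libraries at 12 months and 801, 798 and 739 FPKM in wild-type libraries of that age. At 3 months Mbp had 679, 762 and 937 FPKM in N40K libraries and 806, 862 and 949 FPKM in wild-type libraries. Klk6, a secreted serine protease, was the least abundant, at 0.60 to 1.22 FPKM over the 12 libraries. All 30 were above 0 FPKM in every library.

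The 30 genes varied together from library to library. After the mean of each group was taken away, the median correlation over the 435 pairs of members across the 12 libraries was 0.75, and 28 of the 30 correlated above 0.5 with the mean of the others. Cnp, an enzyme of non-compact myelin, had the highest such correlation at 0.98, and Mbp followed at 0.96. Efnb3, an ephrin ligand that neurons also express, had 0.051, and Klk6 had 0.26. These are descriptions, since the points share libraries, and they mean that the 30 genes do not count as 30 separate measurements. No such correlation was taken over all entries, over another list or without the libraries with Xist. As a mean log2 level centred on each gene, the N40K 12-month libraries stood at -0.23, -0.18 and -0.16 and the wild-type 12-month libraries at -0.031, -0.00027 and -0.098. At 3 months the N40K libraries stood at -0.054, 0.044 and 0.26 and the wild-type libraries at 0.0020, 0.18 and 0.27. The 3 highest libraries were the 3 with Xist, and the 3 lowest were the N40K libraries at 12 months.

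**Figure D1:**
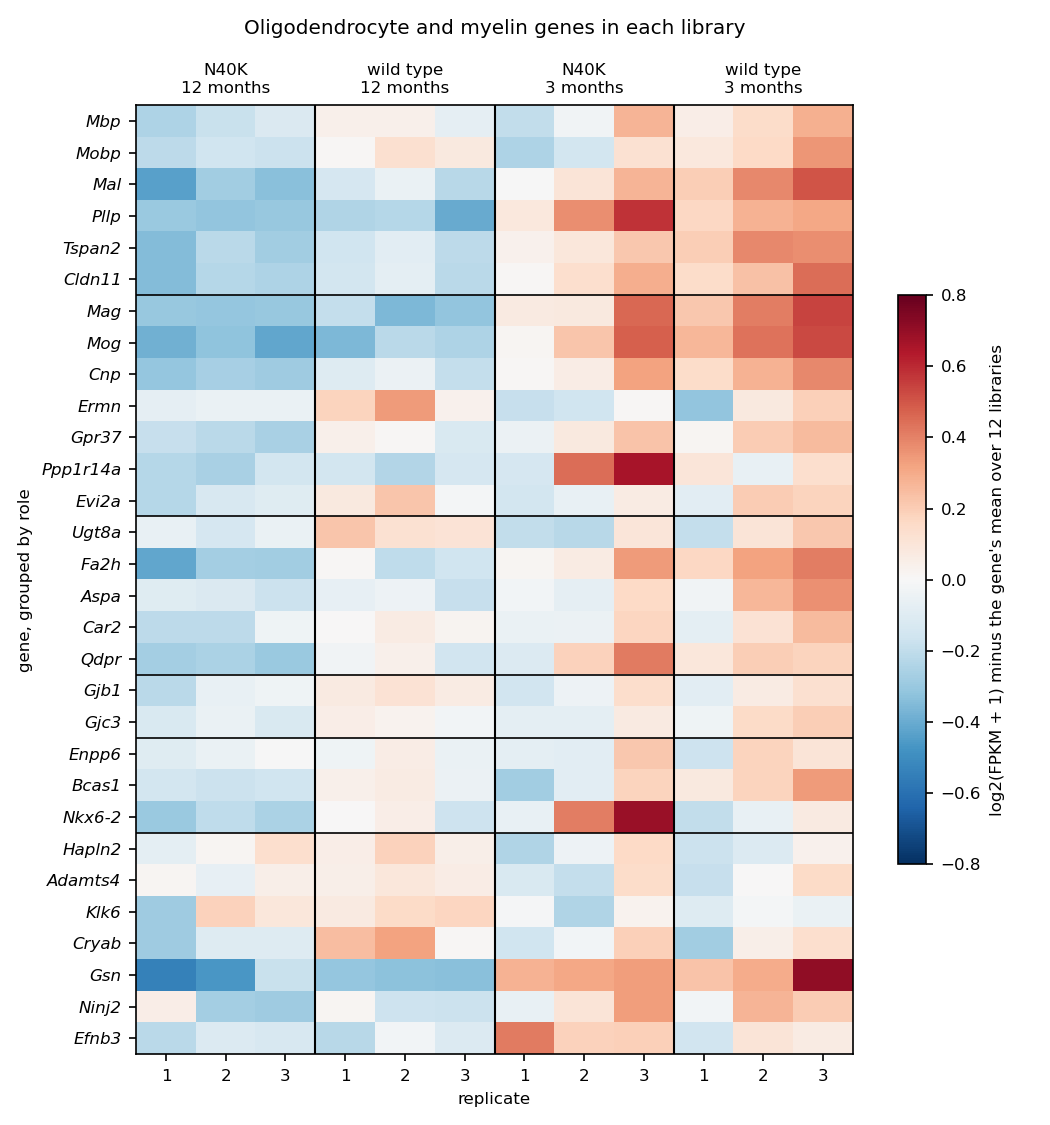
Log2 level of each member in each of the 12 libraries, centred on the gene's mean over all libraries, with genes grouped by role and libraries ordered N40K then wild type within 12 months and within 3 months. The N40K 12-month columns are the lowest as a set, with means of -0.23, -0.18 and -0.16.

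RefSeq promoter windows, from 250 bases before to 50 bases after a transcript start on GRCm38.p6, were matched by symbol for 22 of the 30 genes. The deposited values were made on mm9, and no coordinate of one build is used with the other. Efnb3, Cryab, Bcas1, Fa2h, Mbp, Adamts4, Evi2a and Car2 had no entry. The windows were searched on both strands for the letters CTGGCAC or CTGGTAC, which the myelin gene regulatory factor Myrf is known to bind, and for ACAAAG or ACAATG, the core letters of Sox factors such as Sox10. No match overlapped another in the windows shown. The windows of Mobp and Mal are shown because these genes had the smallest adjusted p-values between genotypes, and those of Mog, Cnp and Hapln2 because Mog and Cnp fell with age and Hapln2 did not. Capitals mark a match on either strand. The windows are chr9:120149492-120149791 on the plus strand for Mobp, chr2:127656646-127656945 on the minus strand for Mal, chr17:37023349-37023648 on the minus strand for Mog, chr11:100574689-100574988 on the plus strand for Cnp and chr3:88027462-88027761 on the minus strand for Hapln2.
Mobp: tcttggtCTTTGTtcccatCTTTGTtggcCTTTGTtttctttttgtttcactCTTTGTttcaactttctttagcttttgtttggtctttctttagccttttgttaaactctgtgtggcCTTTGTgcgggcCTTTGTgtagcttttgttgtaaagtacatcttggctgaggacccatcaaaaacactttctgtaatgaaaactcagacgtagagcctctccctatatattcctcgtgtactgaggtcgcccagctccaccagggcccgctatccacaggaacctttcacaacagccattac
Mal: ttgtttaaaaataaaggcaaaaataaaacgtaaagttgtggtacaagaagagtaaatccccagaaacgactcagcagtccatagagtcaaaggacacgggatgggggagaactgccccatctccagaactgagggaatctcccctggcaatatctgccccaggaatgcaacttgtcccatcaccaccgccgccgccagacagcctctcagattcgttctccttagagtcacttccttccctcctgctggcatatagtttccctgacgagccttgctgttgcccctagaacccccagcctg
Mog: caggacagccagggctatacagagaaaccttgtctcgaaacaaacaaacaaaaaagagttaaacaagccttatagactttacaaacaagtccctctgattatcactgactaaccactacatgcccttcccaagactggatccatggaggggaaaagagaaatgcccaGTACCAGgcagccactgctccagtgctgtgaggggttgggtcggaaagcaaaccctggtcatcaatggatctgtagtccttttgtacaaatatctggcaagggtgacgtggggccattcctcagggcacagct
Cnp: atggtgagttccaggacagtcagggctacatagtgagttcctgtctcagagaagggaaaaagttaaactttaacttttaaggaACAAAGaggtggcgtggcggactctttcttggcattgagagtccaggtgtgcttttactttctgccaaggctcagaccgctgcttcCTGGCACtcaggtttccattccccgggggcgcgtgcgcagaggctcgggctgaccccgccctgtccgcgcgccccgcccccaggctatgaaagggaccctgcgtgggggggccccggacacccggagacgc
Hapln2: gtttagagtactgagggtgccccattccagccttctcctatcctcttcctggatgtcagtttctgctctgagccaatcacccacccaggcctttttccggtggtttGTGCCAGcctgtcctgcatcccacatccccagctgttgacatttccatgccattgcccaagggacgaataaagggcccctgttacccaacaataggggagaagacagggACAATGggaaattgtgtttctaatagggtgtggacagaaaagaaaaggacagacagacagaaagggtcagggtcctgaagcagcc
The Mobp window held 6 Sox matches, all read as CTTTGT on the strand shown, and it was the only 1 of 32851 windows with at least 6. The Mal window held neither set of letters. The Mog window held 1 Myrf match, and the Cnp and Hapln2 windows held 1 match of each kind. The Myrf letters were in 5 of 31 member windows (16.1%), against 7.1% of all windows, and 4 genes carried them: Cnp, Hapln2, Mag and Mog. The Sox letters were in 11 of 31 member windows (35.5%), from 9 genes, against 28.6% of all windows. Overlapping windows of Mag share 1 Myrf match and 1 Sox match, and those letters are counted in each window. These are matches of letters and were not tested as binding sites.

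At 12 months, every one of the 30 genes had a lower mean in N40K hippocampus than in wild-type hippocampus, by a small amount, while with quantile normalization or with Ttr as a covariate 28 were lower and 2 higher. The log2 differences ran from -0.36 to -0.015 with a median of -0.15, against a median of 0.0066 over all 13945 entries, of which 48.4% had a negative difference. In 18 of the 30 genes (60%) all N40K libraries lay below all wild-type libraries, against 17.5% of all entries lower without overlap, and in none were they all above, against 21.3% of entries. Xist stood at or below 0.0718 FPKM in all 12-month libraries. None of the 30 passed the adjusted threshold of 0.05 with limma, although 8 had an unadjusted p under 0.05 and the smallest adjusted p was 0.0583. Of all entries, 7.71% were called lower and 11.2% higher, and 59.2% of the calls were higher. The 18 genes without overlap were Mbp, Mobp, Mal, Tspan2, Cldn11, Cnp, Ermn, Gpr37, Evi2a, Ugt8a, Fa2h, Car2, Qdpr, Gjb1, Gjc3, Bcas1, Nkx6-2 and Cryab. The count called was 0 in the fit of all libraries. Leaving out the N40K 3-month replicate 1 or 3, or the wild-type 12-month replicate 3, gave 1 called lower, beside 6.94% to 7.69% of entries. Leaving out the wild-type 3-month replicate 1 gave 2, beside 7.08% of entries. Without the 3 libraries with Xist, 3 genes were called lower (Mobp, Ugt8a and Cryab), 10% of the members beside 4.85% of entries.

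At 3 months, fewer of the genes stood apart. None was called by limma, 6 had an unadjusted p under 0.05, and 23 were lower and 7 higher in N40K hippocampus than in wild-type hippocampus. The median difference was -0.10, against 0.020 over all entries, of which 43.8% were negative. No gene lay lower without overlap, against 11.5% of all entries, and only Efnb3 lay higher without overlap, against 20.4% of all entries. Of all entries, 3.49% were called lower and 7.95% higher, so that 69.5% of the calls were higher, or 54.6% with median-ratio scaling and 54.4% with quantile normalization. Leaving out N40K 3-month replicate 3 or wild-type 3-month replicate 1 gave 3 members called lower, beside 1.89% and 2.17% of entries. Leaving out wild-type 12-month replicate 2 gave 1, beside 5.21% of entries, and leaving out N40K 3-month replicate 1 gave 2 called higher, beside 6.81% of entries. Without the 3 libraries with Xist, 17 genes had a lower mean and 13 a higher one, the median was -0.017, and none was called, with a single wild-type library left at this age. No member lay without overlap at both ages, in either direction, against 5.78% of entries lower and 10.3% higher.

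Averaged over both ages, 5 of the 30 genes fell in N40K hippocampus and none rose. The 5 were Mobp, Mal and Tspan2 of the compact myelin group, Evi2a, a membrane protein of the mature oligodendrocyte, and Bcas1, a marker of newly myelinating oligodendrocytes. Their share, 16.7%, stands beside 9.54% of all entries called lower and 15.5% called higher. Among all calls, 61.9% were higher, or 49.8% with quantile normalization. The 30 genes had a median difference of -0.13, against 0.014 over all entries, and 26 of them were negative. Without N40K 3-month replicate 1, 3 members were called lower and 1 higher, beside 8.73% and 14.2% of entries. The number called lower depended on other single libraries as well. It was 13 without N40K 3-month replicate 3 or without wild-type 3-month replicate 1, beside 8.2% and 8.12% of entries called lower, and 2 without wild-type 3-month replicate 2 or without N40K 12-month replicate 1, beside 7.37% and 7.32%. It was 3 without N40K 3-month replicate 2, wild-type 3-month replicate 3, N40K 12-month replicate 2, or wild-type 12-month replicate 1 or 2, beside 7.08% to 9.58% of entries. Without the 3 libraries with Xist it was 2 (Bcas1 and Mobp), beside 3.55% of entries called lower.

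Mobp encodes a small basic protein of compact myelin in the central nervous system. It had 69.4, 71.8 and 71.2 FPKM in N40K libraries at 12 months and 80.8, 87.8 and 84.9 FPKM in wild-type libraries at 12 months. At 3 months it had 67.4, 72.3 and 87.4 FPKM in N40K libraries and 85.2, 89.6 and 103 FPKM in wild-type libraries. The groups were separate at 12 months, and at 3 months only the N40K library with Xist reached into the wild-type range. The averaged log2 difference was -0.27 ± 0.063 (SE, limma adjusted p = 0.00884), or -0.25 ± 0.089 at 12 months (limma adjusted p = 0.0692) and -0.29 ± 0.089 at 3 months (limma adjusted p = 0.0570). The N40K mean was 0.838 times the wild-type mean at 12 months and 0.818 times it at 3 months. Mobp was also called in the averaged comparison under all 23 alternatives, with adjusted p between 0.00139 and 0.0239 by limma. In the GENCODE annotation of GRCm38 a second gene, Gm38642, overlaps Mobp on the same strand. The gene overlaps given below come from that annotation too, and the annotation used for counting is not given. If it held both genes, reads in the shared stretch could be counted for either.

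Mal encodes a tetraspan proteolipid of compact myelin that sorts membrane to myelin. Its levels were 55.4, 61.8 and 59.3 FPKM in N40K libraries and 68.4, 72.2 and 64.3 FPKM in wild-type libraries at 12 months. At 3 months they were 75.0, 80.6 and 90.7 FPKM in N40K libraries and 86.4, 98.3 and 107 FPKM in wild-type libraries. The groups did not overlap at 12 months, and at 3 months N40K replicate 3 lay above the lowest wild-type library. The averaged difference was -0.23 ± 0.060 (SE, limma adjusted p = 0.0185), with adjusted p of 0.0734 without the 3 libraries with Xist.

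Tspan2, a tetraspanin of the myelin sheath, had 20.3, 22.3 and 21.4 FPKM in N40K libraries and 23.3, 24.6 and 22.4 FPKM in wild-type libraries at 12 months. At 3 months it had 26.8, 27.9 and 30.4 FPKM in N40K libraries and 30.1, 34.4 and 34.1 FPKM in wild-type libraries. The averaged difference was -0.17 ± 0.046 (SE, limma adjusted p = 0.0196). The groups at 12 months were separate by a narrow margin, and at 3 months the highest N40K library passed the lowest wild-type library. An antisense gene, Tspan2os, overlaps it, and whether reads were counted by strand is not given in the sources used here.

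Bcas1 had 44.9, 44.1 and 44.6 FPKM in N40K libraries and 51.4, 52.1 and 48.2 FPKM in wild-type libraries at 12 months. At 3 months it had 40.9, 47.0 and 56.6 FPKM in N40K libraries and 52.7, 56.6 and 63.4 FPKM in wild-type libraries. The groups were separate at 12 months and overlapped at 3 months. Its averaged difference was -0.22 ± 0.069 (SE, limma adjusted p = 0.0369), and the antisense genes Bcas1os1 and Bcas1os2 overlap it. Evi2a had 8.96, 9.67 and 9.92 FPKM in N40K libraries and 11.3, 12.6 and 10.6 FPKM in wild-type libraries at 12 months. At 3 months Evi2a had 9.55, 10.2 and 11.2 FPKM in N40K libraries and 10.0, 12.4 and 12.2 FPKM in wild-type libraries, which overlap. The averaged difference of Evi2a was -0.20 ± 0.062 (SE, limma adjusted p = 0.0367), and the gene Evi2 overlaps it on the same strand. Bcas1 and Evi2a each lost the call under 11 of 23 alternatives, Tspan2 under 3 and Mal under 1.

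**Figure D2:**
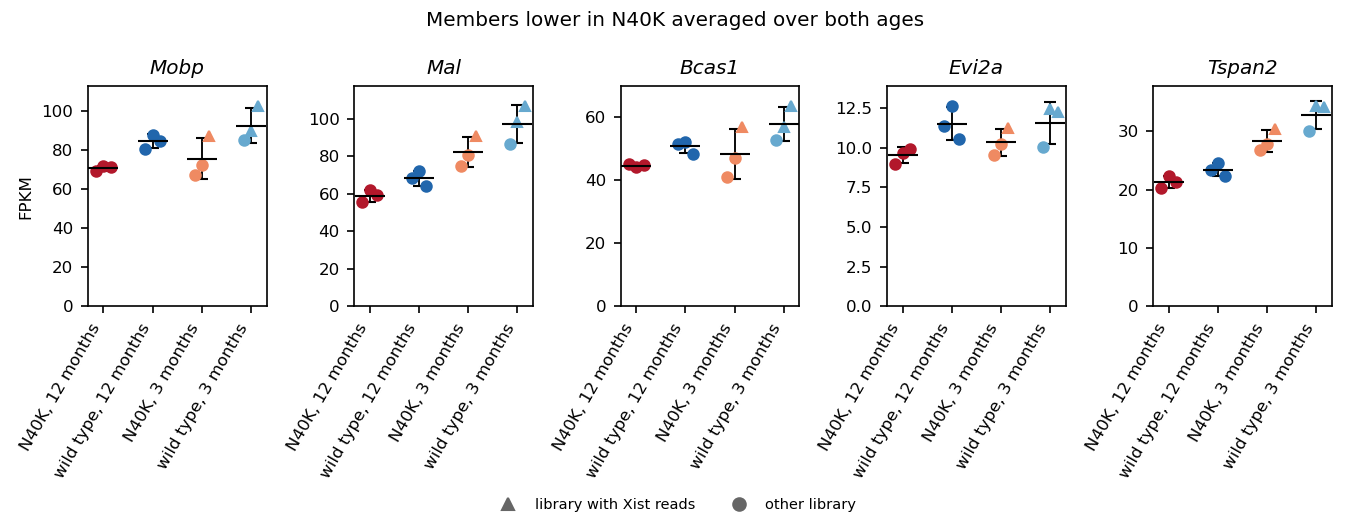
FPKM of the 5 members called lower in N40K hippocampus averaged over both ages, with 1 point per library, the mean and SD of each group of 3, and triangles for libraries with Xist reads. At 12 months all N40K points lie below all wild-type points for each of the 5 genes, and at 3 months the groups overlap.

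The other members of the compact myelin group did not pass between genotypes. Mbp had an averaged difference of -0.16 ± 0.073 (SE, limma adjusted p = 0.122). Cldn11, the claudin that seals myelin lamellae, had -0.13 ± 0.059 (limma adjusted p = 0.137), and Pllp, a proteolipid of myelin membrane rafts, had 0.04 ± 0.071 (limma adjusted p = 0.731). Among proteins of the inner, outer and cytoplasmic layers, Mag had -0.10, Mog -0.13, Cnp -0.16, Ermn -0.17 and the receptor Gpr37 -0.13, with limma adjusted p from 0.0656 for Cnp to 0.342 for Mag. Ppp1r14a, an inhibitor of myosin phosphatase, had 0.11 (limma adjusted p = 0.479). Among enzymes, Ugt8a, which makes galactosylceramide, had -0.19, Fa2h, which hydroxylates its fatty acids, had -0.18, and Car2, a carbonic anhydrase, had -0.13. Aspa, which cleaves N-acetylaspartate, and Qdpr, a pteridine reductase, each had -0.11. Fa2h came nearest to the threshold of these 5 enzymes (limma adjusted p = 0.0663). The glial connexins Gjc3 and Gjb1 had -0.13 and -0.12 (limma adjusted p = 0.0592 and 0.153).

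**Figure D3:**
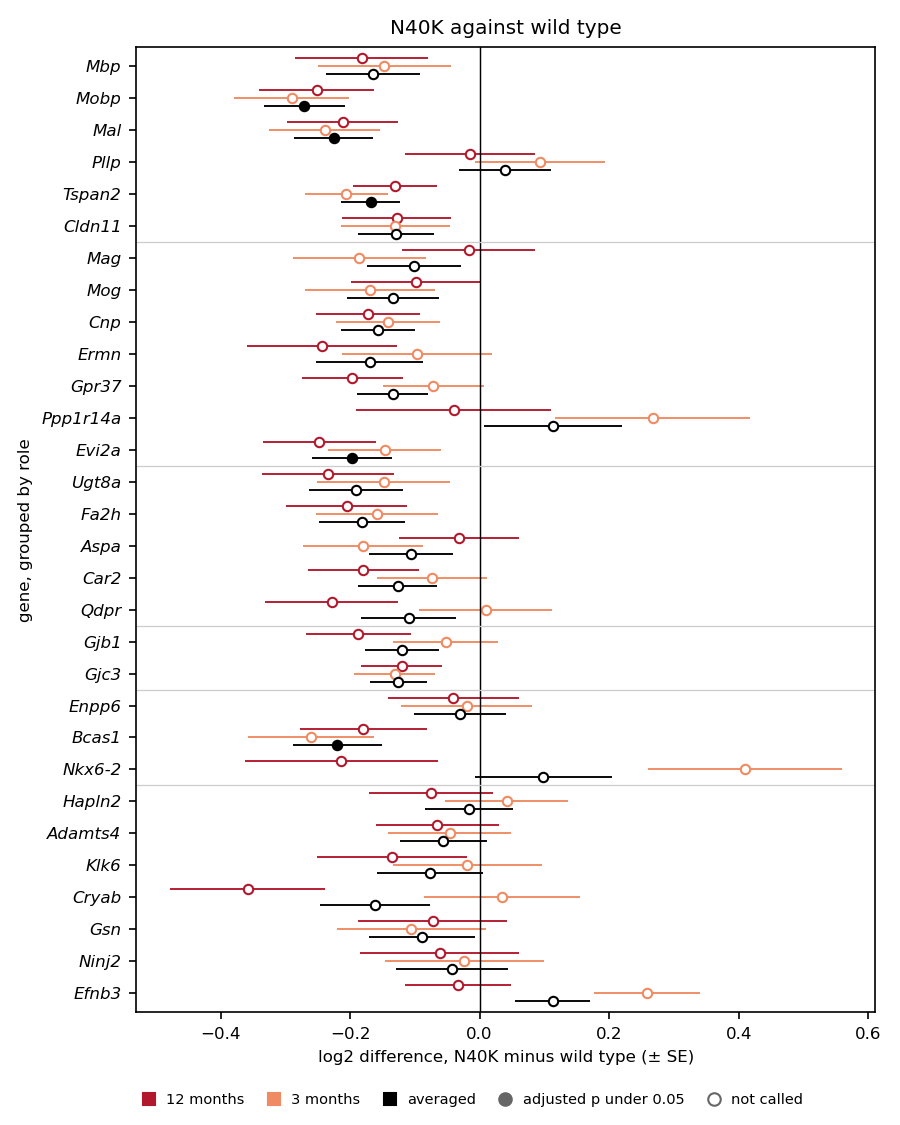
Log2 difference between N40K and wild-type hippocampus for each member with its SE, for each age and for the mean of the ages, with filled points for limma adjusted p under 0.05. All 30 points at 12 months lie below 0 (28 with quantile normalization or with Ttr as a covariate), and the 5 filled points are Mobp, Mal, Tspan2, Evi2a and Bcas1 in the averaged comparison.

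Cryab, a small heat shock protein abundant in oligodendrocytes, had the most negative difference at 12 months. It had 59.9, 68.0 and 68.1 FPKM in N40K libraries and 87.0, 91.9 and 73.8 FPKM in wild-type libraries at that age, without overlap, and a difference of -0.36 ± 0.120 (SE, limma adjusted p = 0.0583). At 3 months it had 65.6, 72.2 and 83.8 FPKM in N40K libraries and 60.2, 75.9 and 80.7 FPKM in wild-type libraries, and the difference was 0.03 ± 0.120 (limma adjusted p = 0.897). The test of the change between ages did not pass, at -0.39 ± 0.170 (limma adjusted p = 0.327). The gene Hspb2 overlaps Cryab on the opposite strand.

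Nkx6-2 (a homeobox transcription factor of oligodendrocytes), Ppp1r14a and Efnb3 had the most positive differences in N40K hippocampus at 3 months, and none passed in the fit of all libraries. Nkx6-2 had 4.19, 6.18 and 7.72 FPKM in N40K libraries and 3.71, 4.20 and 4.67 FPKM in wild-type libraries at 3 months, a difference of 0.41 ± 0.149 (SE, limma adjusted p = 0.107). At 12 months it had 3.40, 3.70 and 3.53 FPKM in N40K libraries and 4.41, 4.61 and 3.81 FPKM in wild-type libraries, a difference of -0.21 ± 0.149 (limma adjusted p = 0.341). The groups of Nkx6-2 overlapped at 3 months and were separate at 12 months. Ppp1r14a had 13.9, 21.2 and 24.8 FPKM in N40K libraries and 16.5, 14.7 and 16.9 FPKM in wild-type libraries at 3 months, which overlap, a difference of 0.27 ± 0.151 (limma adjusted p = 0.303). Efnb3 had 57.0, 48.3 and 48.6 FPKM in N40K libraries and 38.0, 45.6 and 44.5 FPKM in wild-type libraries at 3 months, without overlap, and a difference of 0.26 ± 0.082 (limma adjusted p = 0.0647). At 12 months Efnb3 had 36.5, 39.3 and 38.7 FPKM in N40K libraries and 36.2, 41.7 and 39.3 FPKM in wild-type libraries.

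No member passed the test of whether the N40K difference changed between 12 and 3 months, a test that called 0.0645% of all entries, 0.0287% lower and 0.0359% higher. With limma, 3 members had an unadjusted p under 0.05: Nkx6-2 at -0.62 ± 0.211 (adjusted p = 0.225), Efnb3 at -0.29 ± 0.116 (adjusted p = 0.285) and Cryab. Leaving out N40K 3-month replicate 1 gave 2 members called lower, beside 1.03% of entries.

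Averaged over both genotypes, 16 of the 30 fell at 12 months against 3 months (53.3%) and none rose, beside 42.9% of all entries called lower and 17.7% called higher. The median difference of the members was -0.23, against -0.092 over all entries, of which 66.3% were negative. It was -0.10 without the 3 libraries with Xist and -0.095 with Xist as a covariate. Among all calls, 29.1% were higher, but 48.6% with median-ratio scaling and 45.8% with quantile normalization, under which 13 members fell and 2 rose (Hapln2 and Ermn). Those 13 are 43.3% of the members, beside 28.1% of entries with median-ratio scaling and 30% with quantile normalization, and the 2 are 6.67%, beside 26.6% and 25.4% of entries called higher. Without the 3 libraries with Xist, 12 members fell (40%), beside 33.1% of entries, and 4 rose (13.3%), beside 14.5% of entries: Hapln2, Ermn, Ugt8a and Adamts4. In N40K hippocampus alone 14 members fell (46.7%), beside 36.5% of entries, and in wild-type hippocampus alone 10 fell (33.3%), beside 29% of entries. None rose in N40K or wild-type hippocampus, beside 15.1% and 12.6% of entries, in the fit of all libraries. In wild-type hippocampus 2 of the 3 libraries at 3 months had Xist. Without the libraries with Xist, 8 members fell there, beside 12.3% of entries, and 4 rose (Ermn, Ugt8a, Adamts4 and Cryab), beside 7.29%. With Xist as a covariate 9 fell there, beside 20.7% of entries, and 5 rose (the same 4 and Hapln2), beside 9.79%. In N40K hippocampus the members' median difference was -0.25 in the fit of all libraries and -0.15 without the libraries with Xist. With Xist as a covariate 14 fell there, beside 33.1% of entries, and 1 rose (Adamts4), beside 14.3% of entries called higher. All 12-month libraries lay below all 3-month libraries for 15 members in N40K hippocampus (50%), against 43.7% of entries, and for 14 in wild-type hippocampus, against 34.5% of entries. They lay above them for Hapln2 and Klk6 in wild-type hippocampus, against 15.7% of entries, and for none in N40K hippocampus, against 19.1% of entries. Of the calls 29.3% were higher in N40K hippocampus, or 52.1% with median-ratio scaling, and 30.3% in wild-type hippocampus, or 50.3% with that scaling.

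By role, 4 of 6 compact myelin and tight junction genes fell with age and 5 of 7 of the other myelin layers. The same held for 3 of 5 enzymes, none of the 2 connexins, 1 of 3 genes of newly formed oligodendrocytes and 3 of 7 others. Over all entries 42.9% fell, and no role was tested against that share. Mog, an immunoglobulin-family protein of the outermost myelin layer, had 26.7, 27.8 and 26.1 FPKM at 12 months and 35.5, 41.0 and 49.1 FPKM at 3 months in N40K libraries. In wild-type libraries Mog had 27.1, 30.05 and 29.4 FPKM at 12 months and 42.3, 47.7 and 50.9 FPKM at 3 months. The ages did not overlap in either genotype, and the averaged difference was -0.65 ± 0.071 (SE, limma adjusted p = 1.73e-05). Mag, the adhesion molecule of the innermost layer, had 66.8, 66.4 and 66.8 FPKM at 12 months and 86.9, 87.1 and 114 FPKM at 3 months in N40K libraries. In wild-type libraries Mag had 72.3, 64.2 and 66.2 FPKM at 12 months and 96.2, 110.1 and 120.3 FPKM at 3 months. Its averaged difference was -0.59 ± 0.073 (limma adjusted p = 3.82e-05), again without overlap.

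Pllp had 18.1, 17.8 and 18.0 FPKM at 12 months and 23.8, 29.2 and 33.99 FPKM at 3 months in N40K libraries. In wild-type libraries Pllp had 18.8, 19.0 and 16.7 FPKM at 12 months and 25.3, 27.3 and 28.0 FPKM at 3 months, and the averaged difference was -0.60 ± 0.071 (SE, limma adjusted p = 3.04e-05). Gsn, the actin-severing protein gelsolin, which oligodendrocytes and other cells express, had 18.0, 19.1 and 23.5 FPKM at 12 months and 32.5, 33.4 and 33.9 FPKM at 3 months in N40K libraries. In wild-type libraries Gsn had 21.4, 21.1 and 21.0 FPKM at 12 months and 31.5, 33.1 and 44.3 FPKM at 3 months. Gsn had the largest averaged difference of the 30, at -0.72 ± 0.081 (limma adjusted p = 2.15e-05), and the 2 ages of each gene were separate in both genotypes.

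Tspan2 and Mal, which were lower in N40K hippocampus, also fell with age, by 0.43 and 0.49 on the log2 scale (limma adjusted p = 1.37e-05 and 4.28e-05), from the levels given above. Cldn11 had 44.7, 48.7 and 48.0 FPKM at 12 months and 57.5, 62.9 and 70.1 FPKM at 3 months in N40K libraries, and 51.6, 54.1 and 49.1 FPKM at 12 months and 63.3, 67.3 and 78.3 FPKM at 3 months in wild-type libraries. Its averaged difference was -0.42 ± 0.059 (SE, limma adjusted p = 0.000105). Cnp had 77.3, 79.7 and 78.9 FPKM at 12 months and 96.6, 100.3 and 120.2 FPKM at 3 months in N40K libraries, and 89.5, 92.9 and 84.1 FPKM at 12 months and 106, 117 and 126 FPKM at 3 months in wild-type libraries. Cnp had an averaged difference of -0.40 ± 0.057 (limma adjusted p = 0.000109). The gene Dnajc7 overlaps Cnp on the opposite strand, as other genes overlap Pllp, Ermn, Qdpr, Nkx6-2 and Adamts4. Fa2h had 8.84, 9.89 and 9.83 FPKM at 12 months and 12.3, 12.8 and 15.7 FPKM at 3 months in N40K libraries, and 12.2, 10.4 and 10.8 FPKM at 12 months and 13.8, 15.5 and 16.5 FPKM at 3 months in wild-type libraries. Fa2h had an averaged difference of -0.44 ± 0.066 (limma adjusted p = 0.000161). In these 3 genes, and in 9 others (Mal, Pllp, Tspan2, Mag, Mog, Ppp1r14a, Aspa, Qdpr and Gsn), all 12-month libraries lay below all 3-month libraries in both genotypes, 40% of the members beside 27.3% of all entries.

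The remaining genes called lower with age were Efnb3 at -0.27 ± 0.058, Qdpr at -0.32 ± 0.073, Gpr37 at -0.24 ± 0.055, Ppp1r14a at -0.38 ± 0.107, Aspa at -0.22 ± 0.065, Ninj2 at -0.28 ± 0.087 and Nkx6-2 at -0.29 ± 0.106 (SE, limma adjusted p from 0.00190 to 0.0337). Several of these calls were lost in other fits. Nkx6-2 lost its call under 12 of 22 alternatives, Aspa under 4 of 23 and Ninj2 under 3 of 22, and for each of them these included both fits that deal with Xist, with limma adjusted p of 0.420, 0.171 and 0.230 for Nkx6-2, Aspa and Ninj2 with Xist as a covariate. Gpr37 lost it without the libraries with Xist (limma adjusted p = 0.0627), Ppp1r14a with Xist as a covariate (limma adjusted p = 0.105) and Qdpr with quantile normalization (limma adjusted p = 0.0510). Nkx6-2 fell in N40K hippocampus by 0.60 on the log2 scale (limma adjusted p = 0.00604) and had 0.02 ± 0.149 in wild-type hippocampus (limma adjusted p = 0.910), and its difference of differences did not pass, as given above. Qdpr had 106, 107 and 104 FPKM at 12 months and 119, 146 and 171 FPKM at 3 months in N40K libraries, and 126, 131 and 115 FPKM at 12 months and 136, 147 and 145 FPKM at 3 months in wild-type libraries. Gpr37 had 17.9, 17.5 and 16.9 FPKM at 12 months and 19.8, 21.7 and 24.1 FPKM at 3 months in N40K libraries. In wild-type libraries Gpr37 had 21.1, 20.7 and 18.8 FPKM at 12 months and 20.7, 23.7 and 24.6 FPKM at 3 months, which overlap.

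The genes that did not pass with age included the most abundant one. Mbp had -0.18 ± 0.073 (SE, limma adjusted p = 0.0531) and Mobp -0.11 ± 0.063 (limma adjusted p = 0.163), while Car2 had 108, 108 and 122 FPKM at 12 months and 121, 121 and 141 FPKM at 3 months in N40K libraries. In wild-type libraries Car2 had 125, 131 and 127 FPKM at 12 months and 119, 136 and 149.5 FPKM at 3 months. Hapln2, a link protein of the matrix at nodes of Ranvier, had 10.7, 11.5 and 12.6 FPKM at 12 months and 9.51, 11.1 and 12.9 FPKM at 3 months in N40K libraries, and 11.9, 13.1 and 11.8 FPKM at 12 months and 10.0, 10.5 and 11.7 FPKM at 3 months in wild-type libraries. Its averaged difference was 0.12 ± 0.067 (limma adjusted p = 0.147). Ermn, a cytoskeletal protein of the mature sheath, had 18.6, 18.8 and 18.8 FPKM at 12 months and 17.1, 17.4 and 19.7 FPKM at 3 months in N40K libraries, and 22.3, 25.0 and 20.0 FPKM at 12 months and 15.5, 20.7 and 22.5 FPKM at 3 months in wild-type libraries. Its averaged difference was 0.13 ± 0.082 (limma adjusted p = 0.207). The other 7 that did not pass were Evi2a, Ugt8a, Gjb1, Gjc3, Enpp6, Adamts4 and Klk6, together with Bcas1 and Cryab, between -0.14 and 0.13 on the log2 scale.

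**Figure D4:**
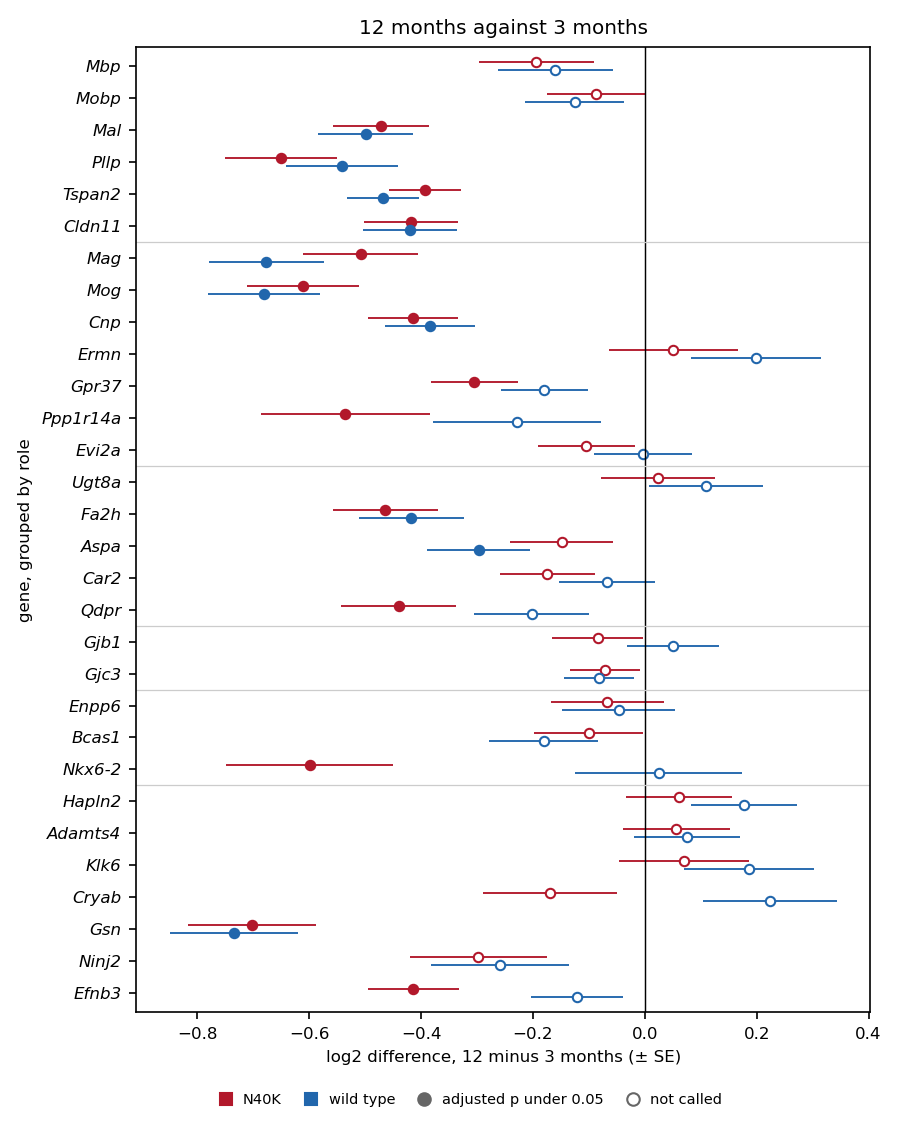
Log2 difference between 12 and 3 months for each member with its SE, for N40K mice and for wild-type mice, with filled points for limma adjusted p under 0.05. Gsn lies furthest below 0, at -0.70 in N40K and -0.73 in wild-type hippocampus among the filled points, and no filled point lies above 0.

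Other genes of the lineage were counted on separate lists. Averaged over both ages, 15.5% of all entries were called higher in N40K hippocampus and 9.54% lower. Of 26 other myelin and oligodendrocyte genes, averaged over both ages, 1 rose in N40K hippocampus (Josd2, by 0.24 ± 0.055 on the log2 scale, limma adjusted p = 0.00806) and 1 fell (Lpar1, at -0.21 ± 0.064, limma adjusted p = 0.0310), with a list median of -0.08. With age 17 of the 26 fell and 1 rose, beside 42.9% and 17.7% of all entries. The 1 that rose was Anln, at 0.52 ± 0.093 (limma adjusted p = 0.000537).

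Of 11 transcription factors of the lineage, Olig2 and Olig1 fell in N40K hippocampus at 12 months, beside 7.71% of all entries. Olig2 had 5.65, 6.08 and 5.98 FPKM in N40K libraries and 10.97, 9.05 and 8.34 FPKM in wild-type libraries, a difference of -0.59 ± 0.086 (SE, limma adjusted p = 0.00127), and Olig1 had -0.34 ± 0.083 (limma adjusted p = 0.0170). The difference of Olig2 at 3 months was -0.02 ± 0.086 (limma adjusted p = 0.935), and the change between ages did not pass (limma adjusted p = 0.129). With age 3 of the 11 rose (Zeb2, St18 and Zfp536) and 3 fell (Sox10, Sox8 and Zfp488), beside 17.7% and 42.9% of entries. Of 12 precursor genes 11 could be tested, and none passed in the averaged genotype comparison. C1ql1 and Tmem100 fell in N40K hippocampus at 12 months, beside 7.71% of entries. Pdgfra, the receptor that marks precursors, had an averaged genotype difference of 0.01 ± 0.041 (limma adjusted p = 0.908). With age 3 precursor genes rose and 6 fell, beside 17.7% and 42.9% of entries.

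Of 18 tested genes of cholesterol synthesis, 6 rose in N40K hippocampus averaged over both ages (Pmvk, Lss, Mvd, Mvk and Tm7sf2 among them), beside 15.5% of all entries, and none fell. Tm7sf2, a sterol reductase, had 0.41 ± 0.058 (SE, limma adjusted p = 0.000477). Of 13 genes of sphingolipid and galactolipid synthesis, Arsa and Kdsr rose and none fell, beside 15.5% and 9.54% of entries. Of 12 node and paranode partners, Sptbn4 rose and Kcna1, Cntnap1 and Epb4.1l3 fell, beside the same shares of entries. Cntnap1, the axonal paranodal protein Caspr, had -0.40 ± 0.057 (limma adjusted p = 0.000522). With age, 3 of the cholesterol genes rose and 8 fell, and 1 sphingolipid gene rose and 10 fell. Of the node genes 6 rose and 3 fell. Over all entries 17.7% rose and 42.9% fell with age.

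Markers of other cells in the tissue moved with genotype in some lists. Of 12 neuronal genes 6 (Nefm and Slc17a7 among them) fell in N40K hippocampus averaged over both ages, beside 9.54% of all entries. At 12 months the mean centred level of the 12 genes was -0.045, -0.043 and -0.046 in N40K libraries. It was 0.083, 0.14 and 0.051 in wild-type libraries, without overlap. Of 12 endothelial and mural genes 2 rose averaged over both ages (Slco1a4 and Abcb1a), beside 15.5% of entries. At 12 months 4 rose, beside 11.2% of entries. There the mean level of that list was 0.067, 0.013 and 0.017 in N40K libraries and -0.18, -0.30 and -0.21 in wild-type libraries. None of 12 astrocyte genes and none of 10 choroid plexus genes passed between genotypes. Of 12 microglial genes Tmem119 fell at 12 months, beside 7.71% of entries. Of 7 Schwann cell genes 3 could be tested. Egr2, which neurons also express, rose at 3 months and averaged over both ages, beside 7.95% and 15.5% of entries. Ttr, the marker of choroid plexus, stood at 25.2, 223 and 2977 FPKM in N40K libraries and 1282, 1053 and 2152 FPKM in wild-type libraries at 12 months, a spread between libraries of one group that passed the difference between groups. At 3 months it stood at 96.8, 1700 and 74.3 FPKM in N40K libraries and 139, 122 and 5813 FPKM in wild-type libraries. With age 8 endothelial and mural genes fell and 2 rose, 4 microglial genes fell and 1 rose, 4 neuronal genes fell and 5 rose, 2 astrocyte genes fell and 1 rose, 2 Schwann cell genes fell, and no choroid plexus gene passed. Over all entries 42.9% fell and 17.7% rose with age. The part of these lists in the levels of the myelin genes was not tested.

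**Figure D5:**
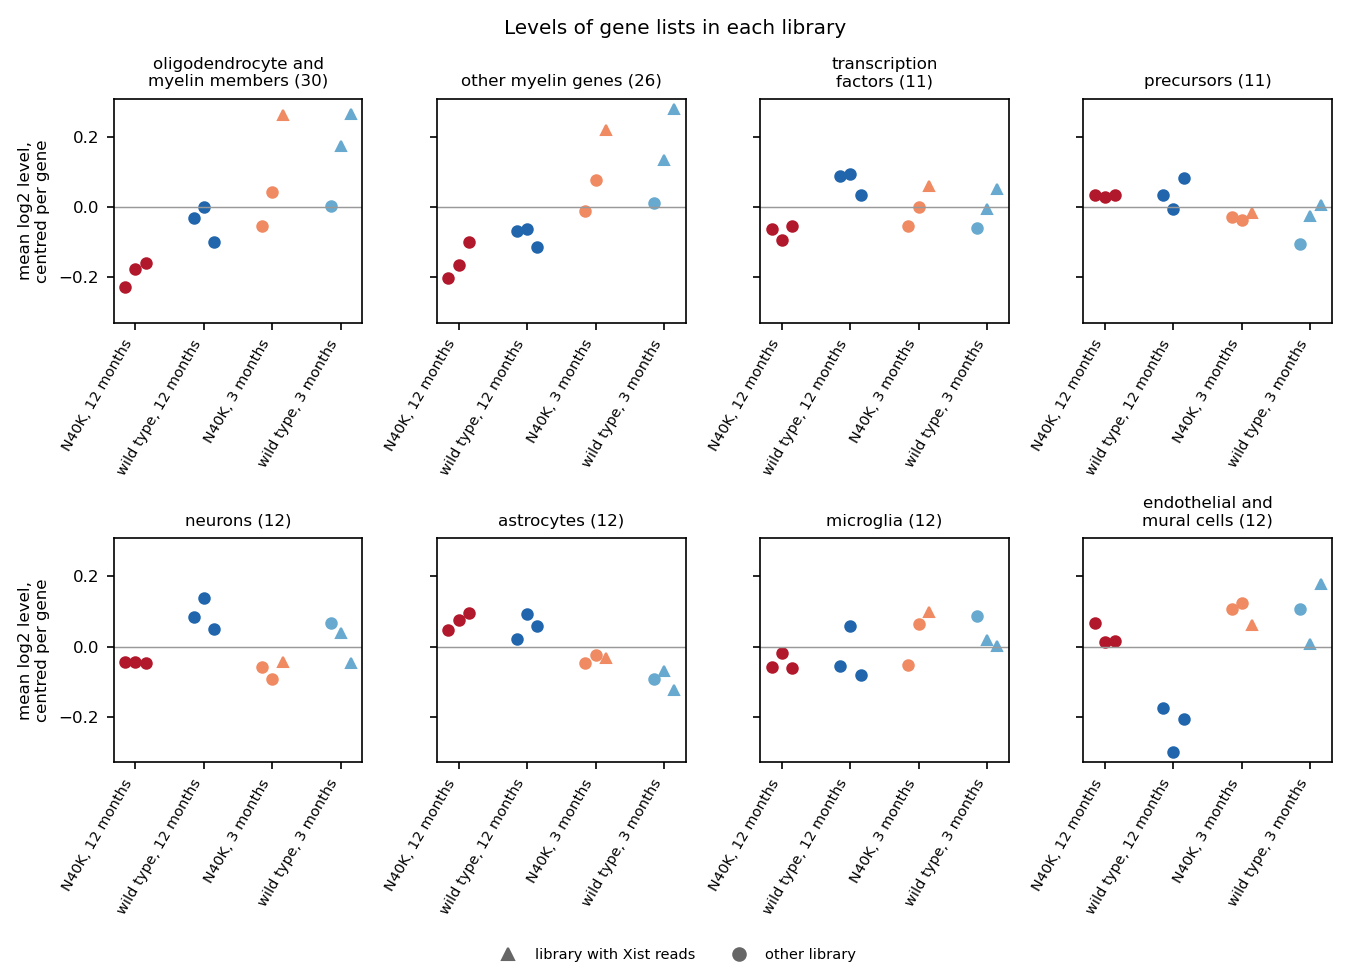
Mean log2 level of each gene list, centred on each gene, in each of the 12 libraries, with triangles for libraries with Xist reads. The myelin members are lowest in the N40K 12-month libraries, at -0.23 to -0.16, and highest in the 3 libraries with Xist, at 0.18 to 0.27.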

How the data were processed

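RNA of 12 mouse hippocampus libraries was measured by sequencing of poly-A TruSeq libraries from both ends, per the labels' protocols. The authors deposited 1 table of FPKM values for all 12 libraries, so read counts were not used. CASAVA, STAR, BWA and the mm9 build are named in the submitters' processing notes without roles or versions. The counting tool, its annotation and whether it used strand are not given in the sources used here. Differences between low values of a library could not be turned into whole reads well enough for a count test: 57.5% to 72.9% of the values tried in a library came within 0.02 of a whole read at the best-fitting depth.

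From that table, log2(FPKM + 1) was fitted without further scaling with limma 3.58.1 in R 4.3.3 (lmFit, contrasts and eBayes with a trend, two-sided), with 1 mean per group and one shared spread, for the 13945 of 23352 entries at 1 FPKM or more in at least 3 libraries. Of the entries, 128 carry joined gene names. A pseudocount of 1 understates the differences of low genes. Entries were called at a Benjamini-Hochberg adjusted p under 0.05 over all entries tested. Figures used Python 3.11.15 with matplotlib 3.10.9, and the fit was tested on simulated data. The members, the other gene lists and the tests were chosen with earlier results of these data known. Values in every library are given for the 12 members with the smallest p, the 3 most abundant and the 3 with the largest averaged genotype difference. Evi2a, Cryab, Nkx6-2, Ermn and Hapln2 were added after their values were seen, as was Ppp1r14a for the 3-month libraries. Of each other list up to 2 genes by p are given, with Pdgfra added after its value was seen. Some genes of these lists are not reported here. Alternatives were the pseudocount, the filter, scaling, Xist and Ttr as covariates, robust variances, a replicate block, each age or genotype alone, the libraries with Xist left out, and each library left out. Replicate numbers come from the labels, which do not say that they pair mice.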

Additional observations from a re-analysis of the deposited data

How the results depend on the processing

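Every member called in the fit of all libraries kept its sign under the alternatives tried. Signs of members that were not called did change: with age averaged, 24 were lower and 6 higher, but 18 and 12 with quantile normalization or without the libraries with Xist. The members' median change of the N40K difference between ages was -0.043, but 0.050 without N40K 3-month replicate 3 and 0.026 without wild-type 3-month replicate 1. The counts of members called between genotypes moved most. At 3 months, where none was called, 1 was called lower with a filter at a mean of 5 FPKM, beside 4.69% of entries. With median-ratio scaling 2 were called lower (6.67% of the members), beside 4.66%, and with quantile normalization 1 (3.33%), beside 4.69%. With Xist as a covariate 1 was called higher (Nkx6-2) and none lower, beside 5.7% and 2.23% of entries. At 12 months, where none was called, 1 was called lower with quantile normalization (3.33% of the members), beside 8.35% of entries. With the Xist covariate 7 were called lower (23.3%), beside 6.75%, and with that age fitted alone 5 (16.7%), beside 4.17%. Averaged over both ages, where 5 were called lower, 3 were with no filter (10% of the members), beside 6.34% of entries. With Ttr as a covariate 3 were called lower (10%), beside 8.41%. With quantile normalization 9 were called lower (30%), beside 12.1%, and with the Xist covariate 9 (30%), beside 8.18%. Counted in either direction, leaving out single libraries gave 0 to 3 members at 3 months and 0 to 2 at 12 months. It gave 2 to 13 averaged over both ages and 0 to 2 for the change between ages. With age it gave 9 to 12 in wild-type hippocampus, 14 to 16 in N40K hippocampus and 15 to 19 averaged. Where a group was left with 1 library, that library is assumed to vary like the others. The median age difference of the members in wild-type hippocampus was -0.17, but -0.022 with the Xist covariate, -0.042 without the libraries with Xist, -0.095 with median-ratio scaling and -0.071 with quantile normalization. In N40K hippocampus it was -0.25, but -0.15 with either way of dealing with Xist and -0.14 under both scalings. The causes of these shifts were not tested. The values are FPKM of unknown depth, and Klk6, Enpp6, Ninj2 and Nkx6-2 were low enough that the pseudocount narrows their differences.

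With the replicate number as a block, 2 members were called lower at 3 months (Tspan2 and Mobp), beside 2.76% of entries. At 12 months 3 were called lower (Mobp, Cryab and Evi2a), beside 6.73% of entries. Averaged over both ages 5 were called lower, beside 8.73% of entries, and the block changed no count by over 1.5 times elsewhere. After group means were taken away, the correlations of same-numbered libraries ran from -0.46 to 0.72. They were not set beside those of differently numbered libraries, so they cannot tell whether the numbers pair the libraries.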
